A study of Mus musculus with 9 samples.

Results

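The mitochondrial ribosomal protein genes were taken as every gene whose symbol is Mrpl or Mrps followed by a number and at most 1 further letter. The rule found 77 of the 47729 genes counted, 48 of the large subunit (Mrpl) and 29 of the small subunit (Mrps). They lie on 17 chromosomes of the mouse build GRCm38, with 10 on chromosome 11 and 8 on chromosome 17, and none is encoded in mitochondrial DNA. Of the 77 genes 76 had enough reads to be tested, and 5 pseudogene symbols of the same families were outside the rule.

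RNA came from cultured skeletal muscle myoblasts of the inbred mouse strain FVB/N, in 3 populations of 3 libraries each. SRC3 denotes the population labelled as SRCs of cycle 3, FRC1 the population labelled as FRCs of cycle 1, and PAR the parental myoblasts they are set against. The series title speaks of parental and reserve cells, and the labels do not spell out SRC or FRC. The reserve populations had been passaged in proliferation conditions between isolation and harvest, no drug or genetic change is named for any group, and the labels do not say whether the 3 libraries of a group came from separate cultures, so p-values measure the spread between these libraries, which may be technical. Levels are given in CPM, the usual unit of counts scaled to library size, here with a correction for composition.

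Mitochondria keep a ribosome of their own, which translates the few membrane proteins of the respiratory chain and ATP synthase that mitochondrial DNA still encodes. Its rRNAs are also mitochondrial transcripts, while all of its proteins are encoded in the nucleus, made in the cytosol and imported. Part of these proteins descend from the bacterial ribosome, and the others were added in the line of mitochondria. In the large subunit they surround the peptidyl transferase centre and the exit tunnel, and in the small subunit the decoding centre and the mRNA channel. Muscle relies on them for oxidative phosphorylation.

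Genes of this family often start close to a gene on the other strand. In GENCODE M21, 33 of the 77 genes (42.9%) had a protein-coding gene that starts on the other strand within 1000 bases. Of all 21620 protein-coding genes counted, whether or not they had enough reads to be tested, 2359 (10.9%) had such a start. Stretches of 3 such intervals are printed first, because they are shared by genes whose values are set side by side below, and 1 further stretch shows motif matches in a gene with no such neighbour. Each was read from the RefSeq promoters of GRCm38.p6, 5′ to 3′ on the strand of the named gene, and covers bases that no annotated exon overlaps. The interval between Mrps12 and Sars2 is at chr7:28741822-28741991 (minus strand), that between Mrps18c and Helq at chr5:100798599-100798626 (plus strand), and that between Mrpl46 and Mrps11 at chr7:78783090-78783118 (minus strand), just before the start of Mrps11, where the longest GENCODE span of Mrpl46 reaches past it. The stretch upstream of Mrpl17 is at chr7:105811100-105811337 (minus strand). Capitals mark matches to the letters CCGGAAG or their reverse complement, the core bound by ETS factors such as GABPA, and in Mrpl17 also the match to the site of nuclear respiratory factor 1 (NRF1).
Mrps12: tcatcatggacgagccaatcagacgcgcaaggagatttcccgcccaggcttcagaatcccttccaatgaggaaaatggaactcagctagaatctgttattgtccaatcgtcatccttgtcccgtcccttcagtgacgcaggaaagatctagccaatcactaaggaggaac
Mrps18c: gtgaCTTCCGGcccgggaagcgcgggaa
Mrpl46: gcccctcgccggcccgcgttgcctcatgg
Mrpl17: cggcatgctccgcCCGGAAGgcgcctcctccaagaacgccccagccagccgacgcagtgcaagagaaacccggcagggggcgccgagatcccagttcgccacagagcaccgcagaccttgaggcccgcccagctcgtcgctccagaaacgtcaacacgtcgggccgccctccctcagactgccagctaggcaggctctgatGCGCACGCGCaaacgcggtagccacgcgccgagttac

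RefSeq windows of 300 bases, from 250 before to 50 after a start, were found for 68 of the 77 genes, 74 windows in all. Sites of 4 kinds were searched on both strands, that of NRF1 with 1 free base. The NRF1 core was in 17.6% of the 74 windows, against 10.4% of the windows of all tested genes. CCGGAAG, the ETS core to which the GABP complex binds, was in 33.8% against 17.8%. AAGATGGC, the core bound by YY1, was in 16.2% against 4.53%. The E box CACGTG, bound by MYC and USF proteins, was in 9.46% against 10.1%. Several windows of Mrpl2 overlap and hold the same E box. Counted once per gene, the E box was in 7.35% of the 68 genes, against 12.1% of the tested genes with a window. At least 1 of the 4 was in 62.2% of the windows, against 35.8% for all tested genes and 20.2% for all 32851 windows. A match describes letters only. No overlap between the 4 kinds was removed.

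Each library held between 13012996 and 14336279 gene counts, so that 3 counts correspond to 0.209 to 0.231 CPM in a library. The tested genes of the family had between 95 counts (Mrps36) and 2531 counts (Mrpl12) in a library, with a median of 654, and the scaling factors of the libraries lay between 0.9937 and 1.012. Mrpl53, of the large subunit, was the gene that failed the count filter. It had 0, 0 and 2 counts in SRC3, 0, 0 and 1 in FRC1, and 0 in each PAR library, and 88% of its exon bases are shared on the same strand with the predicted gene Gm42688. Reads that aligned in several places were tallied apart from gene counts, at 18602150 to 19695230 alignments in SRC3, 16473546 to 18523924 in FRC1 and 15795855 to 16889632 in PAR, and their part in the results was not tested. The pseudogene symbols Mrpl48-ps (28 to 44 counts in SRC3, 37 to 42 in FRC1, 20 to 38 in PAR) and Mrpl23-ps1 (25 to 41, 33 to 39 and 32 to 40 counts in SRC3, FRC1 and PAR) also held reads, so Mrpl48 and Mrpl23 are uncertain to the extent that reads are shared with these copies.

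The myoblast label was checked against markers. Of 6 myoblast markers 5 were tested, and Myf5 had 1 count in SRC3 replicate 3 and 0 in the other libraries. Their summed level was 1490 to 1635 CPM in SRC3, 1951 to 2085 in FRC1 and 2170 to 2215 in PAR, with 4 of the 5 lower in SRC3 than in PAR and 2 of the 5 lower in FRC1 than in PAR. Over all tested genes 20.2% and 14.7% were lower in these comparisons. The 5 myotube markers found in the files summed to 6.607 to 18.11 CPM in SRC3, 64.81 to 76.97 in FRC1 and 7.573 to 9.652 in PAR. Of the 4 tested, 3 were higher and 1, Tmem8c, lower in SRC3 than in PAR (log2 fold changes -2.11 to 1.91). The overlapping sums of SRC3 and PAR thus hide opposite changes. In FRC1 against PAR 3 were higher and 0 lower. Over all tested genes 37.9% and 28.3% were called in these comparisons. Fibroblast markers summed to 272.8 to 300 CPM in SRC3, 282.4 to 397 in FRC1 and 553.2 to 584.1 in PAR, nearly all of it Col3a1, with Lum at 0 in all libraries. Pericyte and smooth muscle markers summed to 4.252 to 14.87, 173.8 to 232.8 and 62.98 to 73.59 CPM in SRC3, FRC1 and PAR, nearly all of it Acta2. Endothelial markers stayed at or below 0.5593 CPM (Kdr at 0) and leukocyte markers at or below 4.396 CPM (Cd3e at 0, Ptprc at 0 in SRC3 and PAR). The part of these levels in the results below was not tested.

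The family as a whole was highest in SRC3 and lowest in PAR. The summed level of the 77 genes was 4104, 4103 and 3975 CPM in SRC3, 3892, 3925 and 3918 CPM in FRC1, and 3875, 3833 and 3710 CPM in PAR. The 3 groups did not overlap. As shares of all gene counts, the family took 0.4114, 0.4077 and 0.4022% in SRC3, 0.3909, 0.3922 and 0.3924% in FRC1, and 0.3865, 0.3815 and 0.3689% in PAR. In bulk RNA, fewer cells of a type and less RNA per cell cannot be told apart.

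Both subunits showed the same order of group means. The 48 large subunit genes summed to 2678 ± 64.4 CPM in SRC3, 2589 ± 10.4 in FRC1 and 2515 ± 56.7 in PAR (SD, n = 3 each). The 29 small subunit genes summed to 1383 ± 22.8, 1322 ± 7.09 and 1291 ± 31.3 CPM in SRC3, FRC1 and PAR (SD, n = 3 each), and for this subunit PAR replicate 1, at 1323 CPM, lay inside the range of FRC1. The ratio of the large to the small subunit sum was 1.937 ± 0.0481 in SRC3, 1.958 ± 0.0049 in FRC1 and 1.948 ± 0.0207 in PAR, with ranges that overlapped. Gene by gene, the median deviation from each gene's mean over the 9 libraries (log2 scale) was 0.064, 0.047 and 0.030 in SRC3, 0.001, -0.004 and -0.005 in FRC1, and -0.023, -0.044 and -0.090 in PAR. PAR replicate 3 was therefore the lowest library of the family.

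**Figure D1:**
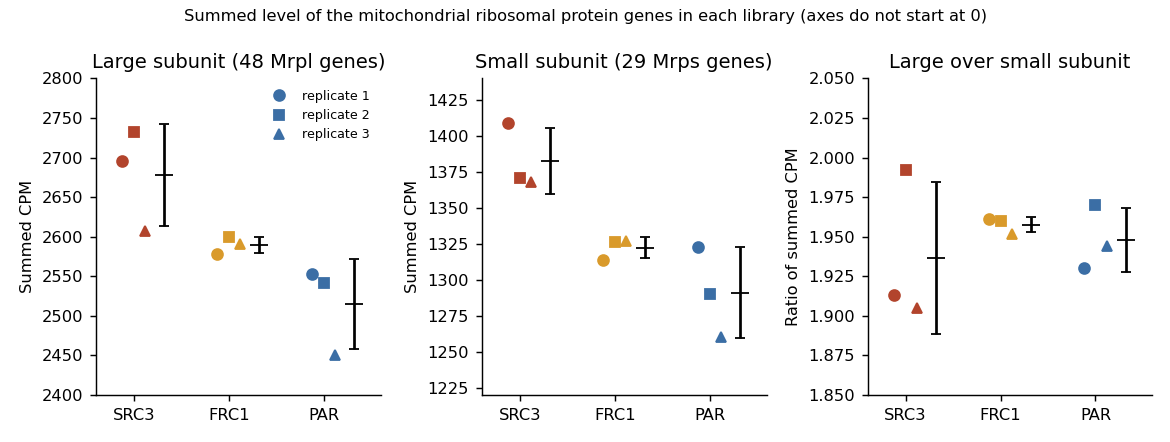
Summed CPM of the large subunit genes (left) and small subunit genes (middle), and the ratio of these sums (right), in each library of SRC3, FRC1 and PAR, with the mean and SD of 3 libraries in black. The axes do not start at 0. The SRC3 libraries lie above the others in both sums, and the ratios of the 3 groups overlap.

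The order of means was also looked at for each tested gene. SRC3 had the highest mean and PAR the lowest in 28 of 76 genes, SRC3 the highest and FRC1 the lowest in 19, and FRC1 the highest and PAR the lowest in 17. PAR had the highest mean in 9 genes (5 with SRC3 and 4 with FRC1 next), and in the other 3 the order was FRC1, PAR, SRC3. In the tests, 49 of the 76 genes passed in no comparison, 29 of them of the large and 20 of the small subunit. The other 27 passed in at least 1 comparison, 18 of the large and 9 of the small subunit, and 0 passed in all 3.

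The first comparison asks what differed between FRC1 and the parental cells. In FRC1, 11 of 76 genes of the family were higher than in PAR and 0 were lower at an adjusted p of at most 0.05 (edgeR quasi-likelihood test over all 12540 tested genes). Over all tested genes 28.3% were called, 13.6% higher and 14.7% lower, so the 14.5% of the family that rose is near the background, while no member fell. At an unadjusted p under 0.05 there were 15 higher and 3 lower, and DESeq2 and limma voom also called 0 lower. The median log2 fold change was 0.04 in the family and 0.00 over all tested genes, with 48 of the 76 values above 0. The changes were small: the 11 genes rose by a median of 1.15-fold, and the 76 log2 fold changes ran from -0.17 to 0.42. Of the 76 genes, 20 were higher and 8 lower in FRC1 with no overlap between the libraries of the groups. Over all 12540 tested genes these counts were 2735 (21.8%) and 2804 (22.4%).

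Mrps12, a bacterial-type protein of the decoding centre of the small subunit (chr7:28739641-28741820, minus strand), had the largest change. Its level was 31.95, 28.5 and 29.2 CPM in FRC1, against 22.5, 23.2 and 21.2 CPM in PAR. The lowest FRC1 library lay above the highest PAR library, and the log2 fold change was 0.42 (SE 0.081, edgeR adjusted p = 0.00065). Mrpl20, a bacterial-type protein of the large subunit (chr4:155802878-155809975, plus strand), was 90.2, 93.1 and 97.8 CPM in FRC1, against 79.7, 80.3 and 78.5 CPM in PAR. Its groups did not overlap either, with a log2 fold change of 0.24 (SE 0.052, edgeR adjusted p = 0.0021).

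Besides Mrpl20, the large subunit genes that rose in FRC1 were Mrpl11 and Mrpl14 (log2 fold change 0.24 each), Mrpl18 (0.19), Mrpl52 (0.19), Mrpl21 (0.18) and Mrpl34 (0.18). By descent, 6 of the 30 tested bacterial-type genes of the large subunit rose (20%), and 1 of its 19 tested mitochondria-specific genes, Mrpl52 (5.26%). Over all tested genes 13.6% were higher. Exon bases shared with genes on the other strand make Mrpl14 (11.2%, with Tmem63b) and Mrpl21 (5.82%, with Ighmbp2) uncertain to that extent. Mrpl11 forms the base of the stalk that contacts translation factors, with 44.4, 51.04 and 44.6 CPM in FRC1, against 39.6, 38.8 and 40.4 CPM in PAR. In the small subunit, Mrps11 (0.21), Mrps23 (0.20) and Mrps26 (0.20) rose beside Mrps12. Mrps11 shares 7.97% of its exon bases with Mrpl46 on the other strand and is uncertain to that extent. Mrps26, specific to mitochondria, was 51.03, 50.1 and 51.5 CPM in FRC1, against 43.7, 44.1 and 45.1 CPM in PAR. In all 11 genes the FRC1 and PAR libraries did not overlap.

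The count of 11 depended on single libraries. It was 2 without PAR replicate 2, 3 without FRC1 replicate 3, 4 without PAR replicate 3, and 6 without PAR replicate 1 or without FRC1 replicate 2, and DESeq2 called 4 genes. Mrps12 and Mrpl20 were the 2 of the 11 that passed under all 17 alternative settings.

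The second comparison sets SRC3 against PAR, and it called more of the family than the other 2. In SRC3, 20 of 76 genes were higher than in PAR and 1 was lower (edgeR, adjusted p of at most 0.05). Over all tested genes 37.9% were called, 17.8% higher and 20.2% lower, against 26.3% and 1.32% of the family. The median log2 fold change was 0.10 in the family and 0.01 over all tested genes, and 64 of the 76 values were above 0. The 20 genes rose by a median of 1.17-fold. Libraries did not overlap for 34 of the 76 genes as higher in SRC3 and for 2 as lower. Over all 12540 tested genes these counts were 2976 (23.7%) and 3187 (25.4%).

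The largest rise in the small subunit was that of Mrps18c, 1 of 3 paralogs that descend from a single bacterial protein (chr5:100798627-100804471, plus strand). Its level was 20.5, 19.5 and 20.3 CPM in SRC3, 14.2, 16.5 and 15.9 CPM in FRC1, and 15.2, 16.6 and 13.6 CPM in PAR. All 3 SRC3 libraries lay above the 6 others, with a log2 fold change against PAR of 0.41 (SE 0.097, edgeR adjusted p = 0.0022). Of its exon bases 23.2% are shared on the same strand with the predicted gene Gm43511, so its value is uncertain to that extent. The paralog Mrps18b was 57.1, 60.0 and 59.5 CPM in SRC3, against 52.5, 50.8 and 50.1 CPM in PAR, a log2 fold change of 0.20 (SE 0.061, edgeR adjusted p = 0.012). Mrps18a, which in spite of its symbol sits in the large subunit, was 54.5, 52.1 and 52.8 CPM in SRC3, against 50.5, 50.2 and 46.9 CPM in PAR and did not pass (log2 fold change 0.11, edgeR adjusted p = 0.15).

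Mrps22 and Mrps23, both specific to mitochondria and without bacterial counterpart, rose in SRC3 as well. Mrps22 (chr9:98588730-98601660, minus strand) was 58.3, 58.3 and 54.7 CPM in SRC3, against 50.9, 48.04 and 45.9 CPM in PAR (log2 fold change 0.24, SE 0.067, edgeR adjusted p = 0.0072). Mrps23 (chr11:88204388-88211507, plus strand) was 57.7, 51.8 and 54.9 CPM in SRC3, against 48.1, 46.6 and 42.8 CPM in PAR (log2 fold change 0.26, SE 0.065, edgeR adjusted p = 0.0035). For both genes the lowest SRC3 library was above the highest PAR library. The bacterial-type small subunit genes Mrps24, Mrps12 and Mrps6 completed the list with log2 fold changes of 0.23, 0.22 and 0.15, and no small subunit gene fell.

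In the large subunit 13 genes rose. Mrpl46, specific to mitochondria (chr7:78775236-78783531, minus strand), was 28.8, 28.4 and 27.4 CPM in SRC3, 21.1, 25.2 and 23.5 CPM in FRC1, and 23.1, 21.3 and 20.7 CPM in PAR. The SRC3 libraries stood above all others, and the log2 fold change against PAR was 0.38 (SE 0.083, edgeR adjusted p = 0.0012). Mrpl48, also specific to mitochondria (chr7:100545751-100608301, minus strand), was 21.3, 23.1 and 21.9 CPM in SRC3, 19.8, 17.1 and 17.3 CPM in FRC1, and 16.5, 18.1 and 17.2 CPM in PAR. Again no library of the other groups reached the SRC3 libraries (log2 fold change against PAR 0.36, SE 0.089, edgeR adjusted p = 0.0035). Mrpl48 shares 8.68% of its exon bases with Rab6a on the other strand and is uncertain to that extent. Mrpl47, a bacterial-type protein near the exit of the peptide tunnel, was 45.9, 50.6 and 45.6 CPM in SRC3, against 41.1, 37.9 and 37.9 CPM in PAR (log2 fold change 0.28, SE 0.068, edgeR adjusted p = 0.0026). It was followed by Mrpl43 (log2 fold change 0.24), Mrpl18 (0.23) and Mrpl20 (0.23), and the other 7 rose by 0.15 to 0.20 on the log2 scale. Mrpl43 (33.4% with Twnk), Mrps18b (30.5% with Gm16279), Mrpl24 (26.3% with Rrnad1), Mrpl47 (24.2% with Actl6a and Ndufb5), Mrpl12 (13.1% with Gm16755), Mrpl46 (12.2% with Mrps11) and Mrpl18 (10.1% with Tcp1) share exon bases with genes on the other strand, and their values are uncertain to that extent because the strand setting of the counting is not given.

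Mrpl12, the factor-binding stalk protein whose human form also binds the mitochondrial RNA polymerase, was among them. It had 176.7, 195 and 173.1 CPM in SRC3, against 159, 166.8 and 155.4 CPM in PAR (log2 fold change 0.18, SE 0.055, edgeR adjusted p = 0.014). All SRC3 libraries were above all PAR libraries.

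Mrpl44, a protein with a fold like RNase III that belongs to the mitochondria-specific set, was the gene that fell (chr1:79776018-79781445, plus strand). Its level was 22.4, 18.7 and 18.4 CPM in SRC3, 20.5, 21.7 and 22.1 CPM in FRC1, and 25.3, 24.6 and 22.7 CPM in PAR. The highest SRC3 library stood just under the lowest PAR library, and the log2 fold change was -0.28 (SE 0.091, edgeR adjusted p = 0.018). Of its exon bases 7.66% are shared with Wdfy1 on the other strand, so its value is uncertain to that extent. Wdfy1 also fell, by 0.59 on the log2 scale. Leaving out PAR replicate 1 or 2, or SRC3 replicate 2 or 3, lost this call, with edgeR adjusted p of 0.06 to 0.086, so that the count of genes lower was then 0.

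Of the other genes whose symbol differs from their place, Mrps30, which sits in the large subunit, was 64.03, 61.4 and 64.1 CPM in SRC3, against 57.8, 57.9 and 55.9 CPM in PAR. Its groups did not overlap, but it did not pass (log2 fold change 0.14, edgeR adjusted p = 0.058). Mrps36, since recognised as a subunit of the 2-oxoglutarate dehydrogenase complex rather than of the ribosome, was 7.839, 8.01 and 9.19 CPM in SRC3, against 7.903, 7.27 and 7.597 CPM in PAR (log2 fold change 0.14, edgeR adjusted p = 0.45). Moving these 3 genes by place left the counts of genes called in each subunit and comparison as they were.

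The count of 20 was 11 without PAR replicate 3, the lowest library of the family, and DESeq2 called 13 genes higher and 1 lower. Of the 21 calls 10 passed under all 17 alternative settings, namely those of Mrpl18, Mrpl20, Mrpl43, Mrpl46, Mrpl47, Mrpl48, Mrps18b, Mrps18c, Mrps22 and Mrps23.

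**Figure D2:**
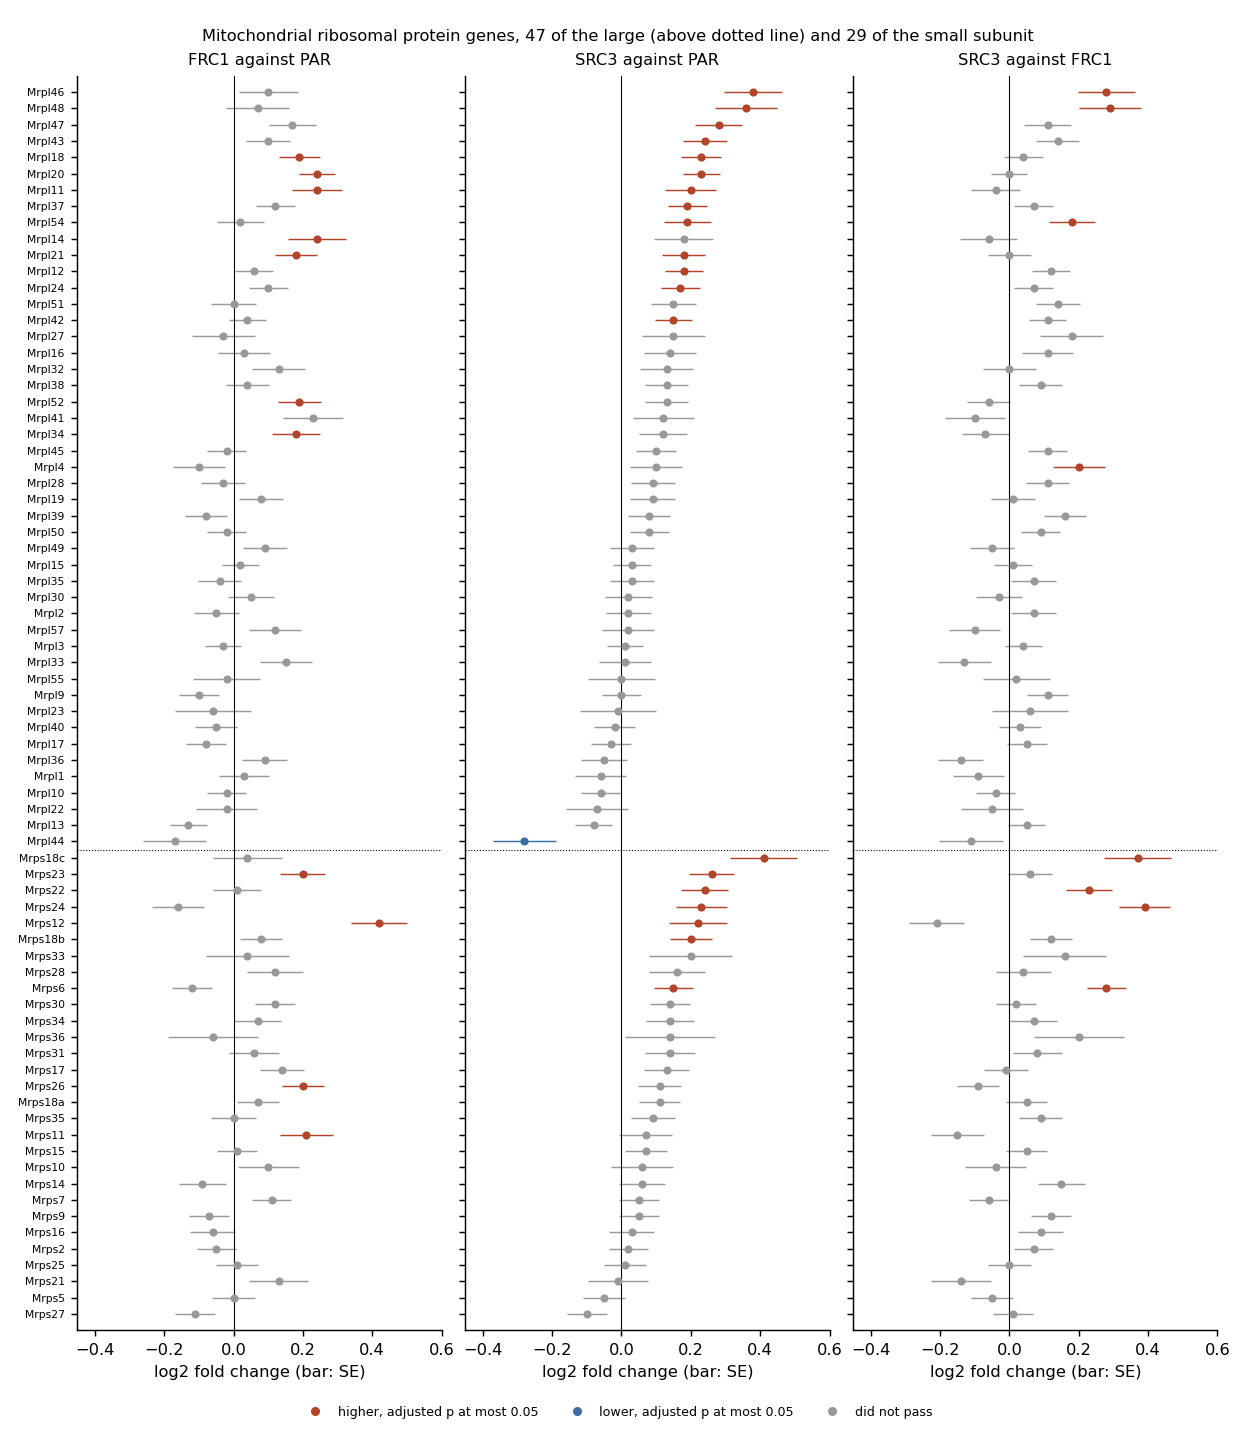
Log2 fold change of each tested gene with its SE, for FRC1 against PAR, SRC3 against PAR and SRC3 against FRC1, with 47 Mrpl genes above and 29 Mrps genes below the dotted line, ordered by SRC3 against PAR. Red genes were higher and blue lower at an edgeR adjusted p of at most 0.05. One gene is blue (Mrpl44, -0.28), and the largest values are 0.42, 0.41 and 0.39.

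The third comparison sets the 2 reserve populations against each other. In SRC3, 8 of 76 genes were higher than in FRC1 and 0 were lower (edgeR, adjusted p of at most 0.05). Over all tested genes 33.5% were called, 15.5% higher and 18% lower, so both shares of the family, 10.5% and 0%, were under the background. At an unadjusted p under 0.05 there were 14 higher and 2 lower, and DESeq2 and limma voom also called 0 lower. The median log2 fold change was 0.05 in the family and 0.00 over all tested genes, with 52 of 76 values above 0. Libraries did not overlap for 18 of the 76 genes as higher in SRC3 and for 4 as lower. Over all 12540 tested genes these counts were 2499 (19.9%) and 2871 (22.9%).

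Mrps24, a bacterial-type protein near the entry of the mRNA channel (chr11:5703983-5715680, minus strand), had the largest difference. It was 32.8, 30.5 and 30.4 CPM in SRC3, 23.6, 24.2 and 23.8 CPM in FRC1, and 26.9, 27.8 and 25.4 CPM in PAR. Here FRC1 was the lowest group and no groups overlapped, with a log2 fold change of SRC3 against FRC1 of 0.39 (SE 0.074, edgeR adjusted p = 0.00038). Mrps6, a bacterial-type protein of the small subunit platform (chr16:92058270-92112227, plus strand), was 133.4, 121 and 126.3 CPM in SRC3, 99.3, 105.4 and 109.5 CPM in FRC1, and 117.1, 118.3 and 107.2 CPM in PAR. SRC3 stood above both other groups, while FRC1 and PAR overlapped (SRC3 against FRC1 log2 fold change 0.28, SE 0.057, edgeR adjusted p = 0.0008). Exon bases of Mrps24 (15.4%, with Urgcp) and Mrps6 (19.9%, with Slc5a3 and Gm49711) are shared with genes on the same strand, so both values are uncertain to that extent.

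The other genes higher in SRC3 than in FRC1 were Mrps18c (log2 fold change 0.37, edgeR adjusted p = 0.0052), Mrpl48 (0.29), Mrpl46 (0.28), Mrps22 (0.23), Mrpl4 (0.20) and Mrpl54 (0.18). Mrpl54 stood at the threshold (edgeR adjusted p = 0.05) and passed in 4 of the 17 alternative settings. Mrpl4, a bacterial-type protein at the wall of the exit tunnel, was 49.5, 54.7 and 42.7 CPM in SRC3, against 42.9, 42.0 and 42.7 CPM in FRC1. Its groups overlapped, because SRC3 replicate 3 lay inside the range of FRC1 (edgeR adjusted p = 0.043). Mrps12 ran the other way, with 27.4, 26.4 and 23.9 CPM in SRC3, against 31.95, 28.5 and 29.2 CPM in FRC1, and did not pass (log2 fold change -0.21, SE 0.08, edgeR adjusted p = 0.054). The count of 8 was 5 without FRC1 replicate 1 and 4 without FRC1 replicate 3, and without SRC3 replicate 2 1 gene, Mrps11, chosen for mention after its value was seen, was lower. Mrps18c, Mrps24 and Mrps6 passed under all 17 alternative settings.

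**Figure D3:**
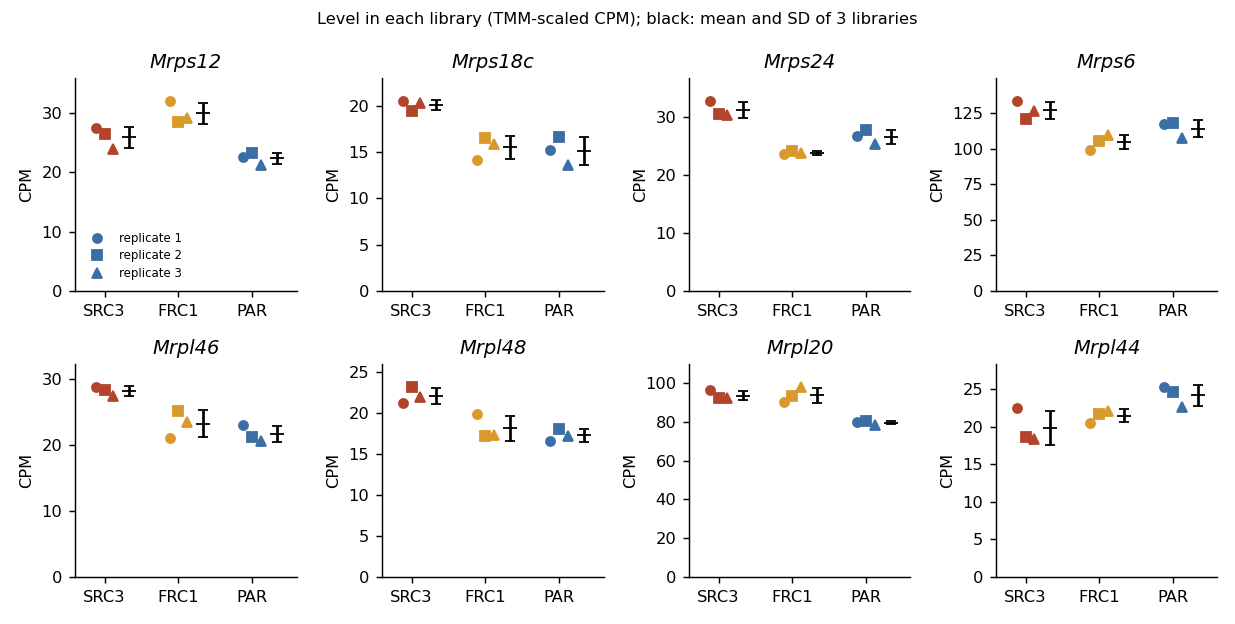
Level in CPM of 8 genes in each library of SRC3, FRC1 and PAR, with the mean and SD of 3 libraries in black and all axes starting at 0. Mrps18c, Mrpl46 and Mrpl48 are highest in all 3 SRC3 libraries, Mrps12 in the FRC1 libraries and Mrpl44 in the PAR libraries, while Mrpl20 is lowest in PAR.

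Read across the 3 comparisons, the 27 genes that passed fell into few patterns, which share their groups and so are not independent of each other. There were 6 genes higher in both reserve populations than in PAR: Mrpl11, Mrpl18, Mrpl20, Mrpl21, Mrps12 and Mrps23. Another 7 were higher in SRC3 than in both other groups: Mrpl46, Mrpl48, Mrpl54, Mrps6, Mrps18c, Mrps22 and Mrps24. The call of Mrpl54 against FRC1 held in 4 of 17 alternative settings. A further 5 passed as higher in FRC1 than in PAR alone (Mrpl14, Mrpl34, Mrpl52, Mrps11 and Mrps26), and 7 as higher in SRC3 than in PAR alone (Mrpl12, Mrpl24, Mrpl37, Mrpl42, Mrpl43, Mrpl47 and Mrps18b). These patterns depend on the threshold. Mrpl34 passed in 7 of 17 settings, and Mrpl14 differed from PAR by 0.24 in FRC1 and 0.18 in SRC3 (edgeR adjusted p = 0.038 and 0.11). Mrpl44 and Mrpl4 each had a pattern of their own.

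The 2 subunits differed little in these counts. Of the 47 tested large subunit genes 7 were higher in FRC1 than in PAR, 13 higher and 1 lower in SRC3 than in PAR, and 4 higher in SRC3 than in FRC1. Of the 29 small subunit genes the counts were 4, 7 and 4 higher, and 0 lower in each. The shares higher were 14.9, 27.7 and 8.51% in the large and 13.8, 24.1 and 13.8% in the small subunit. Over all tested genes 13.6, 17.8 and 15.5% were higher and 14.7, 20.2 and 18% lower. With all 9 libraries in the edgeR fit, the shares higher were thus above the background in SRC3 against PAR, and near or under it otherwise. With 1 library at a time left out, 11 to 21 genes of the family were higher in SRC3 than in PAR. The share over all tested genes in those refits is not given here, so the excess over the background was not tested for them. The median log2 fold changes were 0.04, 0.10 and 0.05 in the large subunit and 0.04, 0.11 and 0.06 in the small subunit for FRC1 against PAR, SRC3 against PAR and SRC3 against FRC1, beside 0.00, 0.01 and 0.00 over all tested genes. Split by descent, in SRC3 against PAR the 30 bacterial-type genes of the large subunit had a median of 0.06 with 7 higher, and the 19 tested mitochondria-specific ones a median of 0.13 with 6 higher and 1 lower. In the small subunit the medians were 0.07 for 16 bacterial-type genes (4 higher) and 0.14 for 10 mitochondria-specific genes (3 higher). This split counted Mrps18b (small subunit, among those higher) and Mrps18a (large subunit) as mitochondria-specific, although the Mrps18 paralogs descend from a bacterial protein. In SRC3 against FRC1, 1 of the 30 bacterial-type and 3 of the 19 mitochondria-specific genes of the large subunit were higher, against 3 of 16 and 1 of 10 in the small subunit. The shares called in the large subunit, bacterial-type first, were 20 and 5.26%, 23.3 and 36.8%, and 3.33 and 15.8% in the 3 comparisons. All were under the 28.3, 37.9 and 33.5% called over all tested genes. They ran in opposite directions in FRC1 against PAR and in the other comparisons, and no test was made between these sets.

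Levels of different genes were compared per kilobase of transcript, using the median length of their annotated coding transcripts. Over the 9 libraries the 76 genes ran from 8.229 to 179.9 CPM per kb, with a median of 34.01 and quartiles of 19.29 and 56.55. Of the 76 genes 49 were within 2-fold of the median. The highest were Mrpl20 (189.1 ± 4.87 CPM per kb in SRC3, 189.6 ± 7.83 in FRC1 and 160.9 ± 1.77 in PAR, SD, n = 3 each), Mrps6 (150 ± 7.37, 123.8 ± 6.09 and 135 ± 7.19 CPM per kb in SRC3, FRC1 and PAR) and Mrpl42 (138 ± 3.3, 127.6 ± 4.36 and 124.4 ± 4.32 CPM per kb in SRC3, FRC1 and PAR). Mrpl42, specific to mitochondria, and Mrpl12, next in the order, did not differ beyond their spread. The lowest were Mrps25 (8.254 ± 0.285, 8.248 ± 0.244 and 8.184 ± 0.301 CPM per kb in SRC3, FRC1 and PAR), Mrpl1 of the L1 stalk (9.19 ± 0.524, 9.802 ± 0.486 and 9.6 ± 0.444) and Mrpl57 (9.715 ± 0.295, 10.4 ± 0.574 and 9.612 ± 0.415), and none of the 3 passed in any comparison. The order rests on the length chosen: per kilobase of all annotated exon bases Mrpl42 ranked 32 instead of 3, and Mrpl12 ranked 1 instead of 4. At the low end Mrps25 then ranked 68 instead of 76, Mrpl1 67 instead of 75 and Mrpl57 62 instead of 74, and the lowest 3 were Mrpl48, Mrpl23 and Mrps10. Mrps25 also shares 69.8% of its exon bases with Nr2c2 on the other strand.

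**Figure D4:**
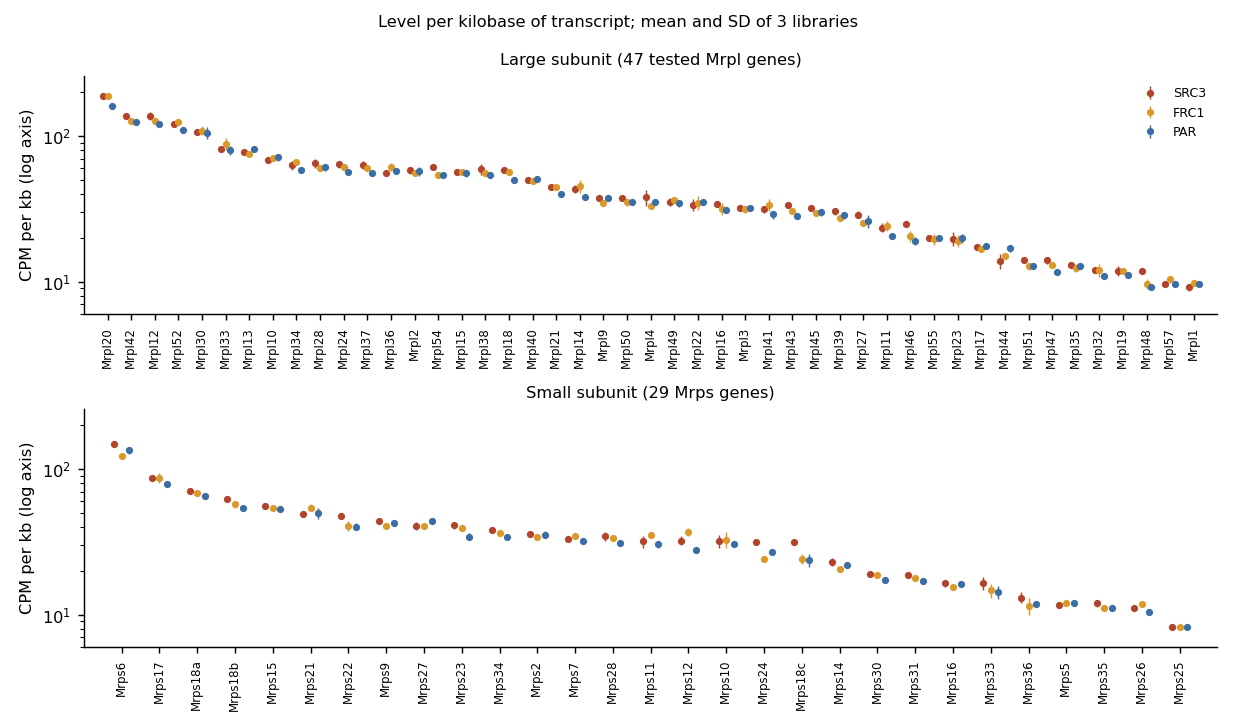
Mean level per kilobase of transcript, on a log axis, of the 47 tested Mrpl genes (top) and 29 Mrps genes (bottom) in SRC3, FRC1 and PAR, with the SD of 3 libraries and genes ordered by mean level. Levels span 8.229 to 179.9 CPM per kb, and the 3 groups of a gene lie close together compared with that span.

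Genes that share a start region with a member gave mixed values. Of the 33 members with such a neighbour, 28 pairs had both genes tested. Mrpl43 and Twnk were left out because Twnk was not found by symbol among the genes counted, so its level is not known here. In FRC1 against PAR 4 members and 5 partners (4 higher, 1 lower) passed, under the 28.3% called over all tested genes, and in 0 pairs did both pass in the same direction. In SRC3 against PAR 11 of the 28 members and 12 of their partners (8 higher, 4 lower) passed, shares near the 37.9% called over all tested genes, with both in the same direction in 6 pairs and in opposite directions in 2. In SRC3 against FRC1, 4 members were higher and 0 lower, and 6 partners were higher and 3 lower. Over all tested genes 33.5% were called in that comparison. There 1 pair passed in the same direction and 0 in opposite ones. How many pairs would match by chance was not tested in any comparison.

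Mrps18c and Helq, a DNA repair helicase that starts 29 bases away, passed together in SRC3 against PAR. Helq was 41.5, 41.4 and 39.6 CPM in SRC3, 20.5, 19.8 and 21.5 CPM in FRC1, and 17.2, 18.1 and 18.3 CPM in PAR, a log2 fold change against PAR of 1.20 (SE 0.075, edgeR adjusted p = 1.1e-10) beside 0.41 for Mrps18c. SRC3 stood apart from both other groups in each gene of the pair. Mrps12 and Sars2, the mitochondrial seryl-tRNA synthetase, differed by 0.22 and 0.36 on the log2 scale in SRC3 against PAR. In FRC1 against PAR, Mrps12 rose by 0.42, while Sars2 was 22.3, 23.0 and 24.1 CPM in FRC1, against 20.5, 22.3 and 18.9 CPM in PAR, and did not pass (log2 fold change 0.17, edgeR adjusted p = 0.16). Mrpl44 and Wdfy1 both fell in SRC3 against PAR (log2 fold changes -0.28 and -0.59). Mrpl47 and Ndufb5, a subunit of respiratory complex I, both rose (0.28 and 0.21), as did Mrpl37 with Cyb5rl (0.19 and 0.32) and Mrpl54 with Apba3 (0.19 and 0.26).

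Mrpl46 and Mrps11 share a start region with each other. Mrpl46 rose in SRC3 against PAR (0.38) but not Mrps11 (0.07, edgeR adjusted p = 0.53), and Mrps11 rose in FRC1 against PAR (0.21) but not Mrpl46 (0.10, edgeR adjusted p = 0.39). Pairs of opposite direction in SRC3 against PAR were Mrpl21 and Ighmbp2 (0.18 and -0.36) and Mrpl48 and Rab6a (0.36 and -0.16). Reads from overlapping ends of such pairs cannot be told apart without the strand setting.

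The remaining proteins of the mitochondrial ribosome carry other symbols. Of 6 tested (Dap3, Ptcd3, Aurkaip1, Chchd1, Ict1 and Gadd45gip1), 1 passed in any comparison. It makes 16.7% of these genes, beside 28.3% called over all tested genes in FRC1 and 37.9% in SRC3 against PAR. Chchd1, of the small subunit, was 74.4, 67.3 and 66.3 CPM in SRC3, 62.5, 69.4 and 64.7 CPM in FRC1, and 51.5, 53.5 and 50.6 CPM in PAR. Both reserve populations stood above PAR, with log2 fold changes of 0.42 in SRC3 (SE 0.063, edgeR adjusted p = 2.4e-05) and 0.34 in FRC1 (SE 0.063, edgeR adjusted p = 0.00049). Dap3, the GTP-binding protein of the small subunit, was 114.1 ± 5.33 CPM in SRC3, 115.7 ± 0.53 in FRC1 and 116 ± 4.53 in PAR (SD, n = 3 each) and passed in no comparison.

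Of 25 tested genes of mitoribosome assembly and rRNA modification, 5 were higher and 0 lower in FRC1 than in PAR, 4 higher and 1 lower in SRC3 than in PAR, and 1 higher and 2 lower in SRC3 than in FRC1. The shares called were 20, 20 and 12%, under the 28.3, 37.9 and 33.5% of all tested genes. Noa1, a GTPase required for the small subunit, rose in both reserve populations, at 59.6, 56.3 and 54.5 CPM in SRC3, 63.8, 68.4 and 62.4 CPM in FRC1, and 47.98, 48.8 and 49.5 CPM in PAR. Its log2 fold change was 0.22 in SRC3 (edgeR adjusted p = 0.0075) and 0.41 in FRC1 against PAR (edgeR adjusted p = 4.6e-05). Eral1, a chaperone of the small rRNA, rose by 0.33 in SRC3 and 0.26 in FRC1 on the log2 scale, and the RNA helicase Dhx30 by 0.23 in both. Mrm1, which methylates the large rRNA, rose in FRC1 against PAR (0.37) and was lower in SRC3 than in FRC1 (-0.49, edgeR adjusted p = 0.001). Nsun4, which acts in joining of the subunits, fell in SRC3 against PAR (-0.35, edgeR adjusted p = 0.0085).

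Among 13 translation factors, few passed: 1 higher and 2 lower in FRC1 than in PAR, 1 higher and 0 lower in SRC3 than in PAR, and 2 higher and 1 lower in SRC3 than in FRC1. The shares called were 23.1, 7.69 and 23.1%, under the 28.3, 37.9 and 33.5% of all tested genes. The elongation factor gene Gfm1 was 150.5, 148.8 and 148.2 CPM in SRC3, 131.9, 123.7 and 129.4 CPM in FRC1, and 153.7, 152.5 and 146.3 CPM in PAR, so FRC1 was the low group (FRC1 against PAR log2 fold change -0.23, edgeR adjusted p = 0.0012). Tsfm, the exchange factor of the elongation factor Tu, rose in SRC3 against PAR (0.27) and against FRC1 (0.28). In transcription and RNA stability, 0 of 13 genes were higher and 3 lower in FRC1 than in PAR, 0 passed in SRC3 against PAR, and 4 were higher and 1 lower in SRC3 than in FRC1. Here 23.1, 0 and 38.5% were called, under the background against PAR and near it in SRC3 against FRC1. Lrpprc, which stabilises mitochondrial mRNAs, was 211.6 ± 5.56 CPM in SRC3, 183.6 ± 0.568 in FRC1 and 205.4 ± 3.41 in PAR (SD, n = 3 each). It fell in FRC1 against PAR (-0.16, edgeR adjusted p = 0.011) and was higher in SRC3 than in FRC1 (0.20, edgeR adjusted p = 0.0014). Of 6 processing protease genes, Pmpcb was the 1 that passed, higher in SRC3 than in FRC1 (0.25). It makes 16.7% of these genes, under the background.

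The mRNAs that these ribosomes translate moved more than the protein genes in the 2 comparisons with FRC1. In SRC3 against PAR their median log2 fold change was 0.17, beside 0.10 in the family, but a smaller share was called (20% against 27.6%). Of the 13 mRNAs of mitochondrial DNA 10 were tested, and 0 were higher and 5 lower in FRC1 than in PAR, 2 higher and 0 lower in SRC3 than in PAR, and 6 higher and 0 lower in SRC3 than in FRC1. The shares called were 50, 20 and 60%, beside 28.3, 37.9 and 33.5% of all tested genes. The list is unevenly counted: mt-Co2, mt-Co3 and mt-Atp6 averaged 3.16, 2.86 and 2.38 CPM over the 9 libraries, against 3748 CPM for mt-Co1, and mt-Nd3, mt-Nd4l and mt-Atp8 were near 0 and not tested. The sum below therefore rests mainly on mt-Co1, mt-Cytb, mt-Nd1, mt-Nd5, mt-Nd2 and mt-Nd4. The summed level of the list was 15970, 12773 and 15603 CPM in SRC3, 10847, 10521 and 9103 CPM in FRC1, and 12983, 12426 and 12864 CPM in PAR. SRC3 replicate 2 stood below the other SRC3 libraries and inside the range of PAR, and without it the counts were 8 lower in FRC1 than in PAR, 5 higher in SRC3 than in PAR and 7 higher in SRC3 than in FRC1. The shares called over all tested genes in that refit are not given here, so these counts have no background beside them. mt-Cytb, of respiratory complex III, was 4235, 3698 and 3963 CPM in SRC3, 2684, 2668 and 2484 CPM in FRC1, and 3312, 3065 and 3198 CPM in PAR. No groups overlapped, with log2 fold changes of 0.31 in SRC3 against PAR and -0.29 in FRC1 against PAR (edgeR adjusted p = 6.9e-05 and 0.00034).

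The ribosome's own RNAs were highest in SRC3. mt-Rnr1, the small subunit rRNA, was 290, 222.7 and 251.8 CPM in SRC3, 151.9, 183.7 and 178.9 CPM in FRC1, and 148.9, 152.8 and 163.7 CPM in PAR (SRC3 against PAR log2 fold change 0.72, edgeR adjusted p = 0.00016). mt-Rnr2, the large subunit rRNA, was 352.2, 272.6 and 337.2 CPM in SRC3, 144.5, 159.5 and 169.8 CPM in FRC1, and 219.1, 222.7 and 224.9 CPM in PAR. It rose in SRC3 by 0.53 and fell in FRC1 by 0.49 on the log2 scale against PAR (edgeR adjusted p = 0.00032 and 0.0011). Libraries were made from polyadenylated RNA, so these rRNA values count the polyadenylated or captured part.

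Of 9 regulators of nuclear genes for mitochondria, 2 were higher and 2 lower in FRC1 than in PAR, 3 higher and 3 lower in SRC3 than in PAR, and 3 higher and 1 lower in SRC3 than in FRC1. The shares called were 44.4, 66.7 and 44.4%, beside 28.3, 37.9 and 33.5% of all tested genes. Ppargc1a, the coactivator of mitochondrial biogenesis, was 2.93, 2.31 and 3.04 CPM in SRC3, 2.42, 2.24 and 2.56 CPM in FRC1, and 8.18, 7.96 and 8.88 CPM in PAR. It fell in both reserve populations, by 1.59 on the log2 scale in SRC3 (edgeR adjusted p = 1.5e-07) and by 1.79 in FRC1 (edgeR adjusted p = 2.1e-07). Ppargc1b fell as well (-0.33 in SRC3 and -0.36 in FRC1). Nrf1 rose in both (0.25 and 0.22 in SRC3 and FRC1), Gabpb1 and Myc rose in SRC3 against PAR (0.31 and 0.28), and Yy1 fell there (-0.21). Unlike the 2 Ppargc1 genes, Pprc1 was higher in FRC1 than in PAR, and it was lower in SRC3 than in FRC1. Its level was 178.5 ± 14.2 CPM in SRC3, 217.1 ± 6.55 in FRC1 and 191.5 ± 5.59 in PAR (SD, n = 3 each).

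The cytosolic ribosomal protein genes serve as the matching list for the ribosome outside mitochondria. Of 79 tested, 20 were higher and 0 lower in FRC1 than in PAR, 30 higher and 1 lower in SRC3 than in PAR, and 1 higher and 1 lower in SRC3 than in FRC1. The shares called were 25.3, 39.2 and 2.53%, beside 28.3, 37.9 and 33.5% of all tested genes. Those higher made 25.3, 38 and 1.27%, beside 13.6, 17.8 and 15.5%. Their medians were 0.08, 0.10 and 0.02 on the log2 scale, beside 0.04, 0.10 and 0.05 for the mitochondrial family. Rps21 rose in both reserve populations, at 346.2 ± 20.7 CPM in SRC3, 334.6 ± 21.3 in FRC1 and 279 ± 7.01 in PAR (SD, n = 3 each). Many of these genes have near-identical copies in the genome, and their values are uncertain where reads were shared.

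**Figure D5:**
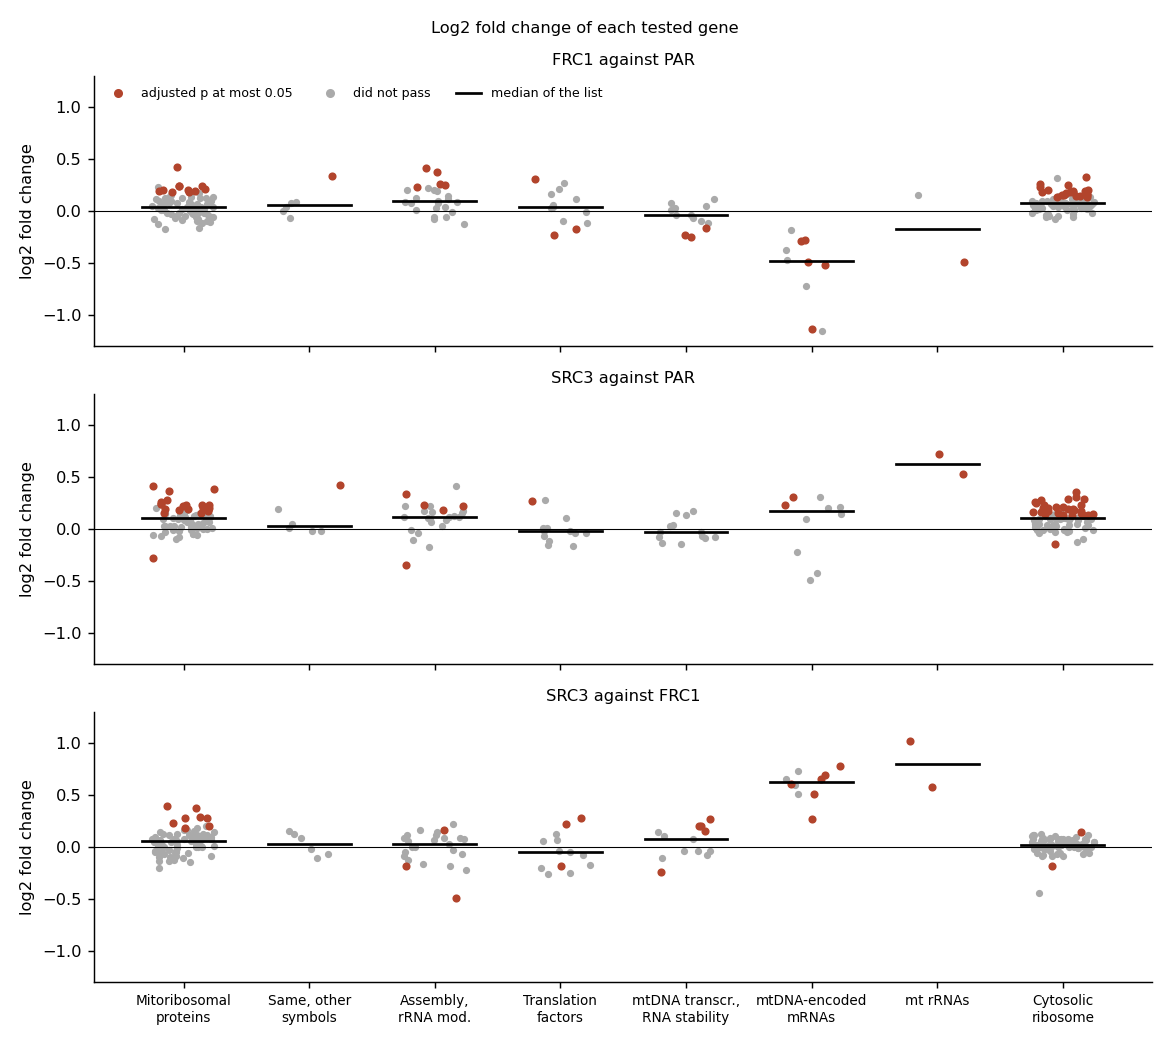
Log2 fold change of each tested gene in the mitochondrial ribosomal protein family and 7 related lists, for FRC1 against PAR (top), SRC3 against PAR (middle) and SRC3 against FRC1 (bottom). Red points passed at an edgeR adjusted p of at most 0.05 and bars are list medians. The medians of the family are 0.04, 0.10 and 0.05, and those of the mitochondrial mRNAs -0.48, 0.17 and 0.63.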

How the data were processed

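The authors deposited raw counts of reads per gene, 1 file for each of 9 libraries. Per the labels' protocols, libraries followed a stranded TruSeq protocol for polyadenylated RNA, sequenced as single reads. HISAT2 2.1.0, HTSeq 0.9.1, the DESeq2 package and the build GRCm38 appear in the submitters' processing notes. Settings, the strand setting included, were not given in the sources used here. The summary lines of each file, which name no gene (5.923 to 7.917% of unique reads in no gene, 1.175 to 1.214% ambiguous), stayed out of library sizes.

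Groups came from the sample titles. In R 4.3.3 with edgeR 4.0.16, filterByExpr (minimum count 10, total 15) left 12540 genes, TMM factors scaled the libraries, and all 9 libraries were fitted with the group as term (glmQLFit, robust, and glmQLFTest, two-sided, 6 residual degrees of freedom). P-values were adjusted over all tested genes by Benjamini-Hochberg, with a threshold of 0.05. Standard errors were derived from this fit, and the common biological coefficient of variation was 0.0535. Chi-square per degree of freedom between replicates was 1.81 to 7.47, so no pair agreed within sampling noise. Floors cover counting error only. The pipeline was tested on simulated data.

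The members, lists and tests were chosen with earlier results of these data known. The text names the 3 Mrps18 paralogs, Mrps30, Mrps36, Mrpl12, genes that failed the filter, up to 6 (large) or 5 (small subunit) of the largest changes that passed in each direction and comparison, the smallest adjusted p, the 3 highest and lowest levels per kilobase, and up to 3 changes each way in other lists, and gives other members by value. Alternatives were RLE factors, library sizes alone, no filter, a stricter filter (5 CPM in 3 libraries), DESeq2 1.42.0, limma 3.58.1 voom, the 2 groups compared alone, a replicate block, each library left out, and subunits by place. Leaving out SRC3 replicate 2 for the related lists was added after seeing the data. Locations came from GENCODE M21, which held 47224 of 47729 identifiers.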

Additional observations from a re-analysis of the deposited data

How the results depend on the processing

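Across the alternatives, the named genes kept their direction and side of the threshold in 3913 of 4173 refits, lost the call in 216, gained it in 44, and reversed a call in 0. DESeq2 called fewer genes: 4 higher in FRC1 than in PAR (3 of the large and 1 of the small subunit). In SRC3 against PAR it called 13 higher (4 of the small subunit). In SRC3 against FRC1 it called 2 large subunit genes higher, and a fit of the 2 groups alone also called 2. These counts of 2 leave out the small subunit, where Mrps18c, Mrps24 and Mrps6 were higher under all 17 alternative settings. The stricter filter gave a small subunit median of 0.072 in SRC3 against FRC1.

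Leaving out 1 library at a time, genes higher in FRC1 than in PAR numbered 2 to 11 (1 to 7 large, 1 to 5 small), and lower 0. In SRC3 against PAR 11 to 21 were higher (7 to 14 large, 4 to 8 small) and 0 to 1 lower (0 to 1 large). In SRC3 against FRC1 4 to 10 were higher (1 to 5 large, 3 to 5 small) and 0 to 1 lower (0 to 1 small). Medians of the large and small subunits ranged over 0.009 to 0.059 and 0.029 to 0.06, then 0.087 to 0.127 and 0.099 to 0.137, then 0.038 to 0.066 and 0.053 to 0.088 in the same order of comparisons. Each scaling moved the median of all genes by at most 0.010 on the log2 scale.

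Samples share a replicate number in the titles, and deviations of same-numbered samples from their group means correlated at -0.0704 to 0.118, so the numbers were not taken to pair them. Against PAR every sample correlated best with its own number, which is a hint from the data and not the design. With the replicate number as a block, 1 member, of the small subunit (Mrps12), was lower in SRC3 than in FRC1, and the other counts of members stayed within 1.5 times. Mrpl53 was below the count filter at this depth, at which the other members had at least 95 counts in each library, and the cause of its low counts was not tested.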
